A study of Arabidopsis thaliana with 18 samples.

Results

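The response of an Arabidopsis thaliana GNL overexpressor to sucrose in darkness was measured by RNA sequencing of whole seedlings. GNL, also called CGA1, is a B-class GATA transcription factor and the paralog of GNC. The 6 libraries compared, of 18 in the series, were the 3 of the group GNLox SUC and the 3 of the group GNLox MS, chosen by their genotype and medium labels. GNLox SUC seedlings carried GNL as a transgene and grew on half-strength Murashige and Skoog medium with 1% sucrose, and GNLox MS seedlings of the same genotype grew on that medium without sucrose. All seedlings were 3 days old, had been kept in the dark at 21 °C, and were of the ecotype Columbia (Col-0). The promoter that drives GNL in GNLox, and whether the line is 1 insertion, have not been stated in the sources used here. The other 12 libraries, 3 each of Col-0 and of the double mutant gnc gnl with and without sucrose, entered the same model, shared its estimate of the spread between replicates and served to test where the response of GNLox differed.

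A dark-grown seedling lives on its seed reserves. When carbon runs short, the kinase SnRK1 and bZIP factors switch on genes that break down amino acids, lipids and cell contents, and sugar switches them off. Sugar also acts through the TOR kinase, which favours ribosome synthesis, cell division and wall growth. GNC and GNL promote greening and chloroplast development and act downstream of gibberellin, auxin and light signals.

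The GNLox SUC libraries held 32368268, 35928041 and 37193686 gene reads, and the GNLox MS libraries 39143241, 35603525 and 33424447. One library stood apart. GNLox MS replicate 3 had 25.4% of its reads in nuclear rRNA genes and 23.3% in plastid genes, against 1.00 to 4.40% and 0.915 to 1.55% in GNLox SUC and, in the other GNLox MS libraries, 4.96 to 6.19% and 3.44 to 4.95%. Levels below are normalised read counts (CPM), scaled to library sizes normalized by trimmed means of M values and not corrected for gene length. A change is a log2 ratio of GNLox SUC over GNLox MS, with its standard error (SE), and a gene is called when its Benjamini-Hochberg adjusted p from edgeR's quasi-likelihood test is under 0.05. Leaving out GNLox MS replicate 3 left 10227 of 22104 genes called (46.3%). In whole seedlings, fewer cells of a type and less RNA per cell cannot be told apart.

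**Figure D1:**
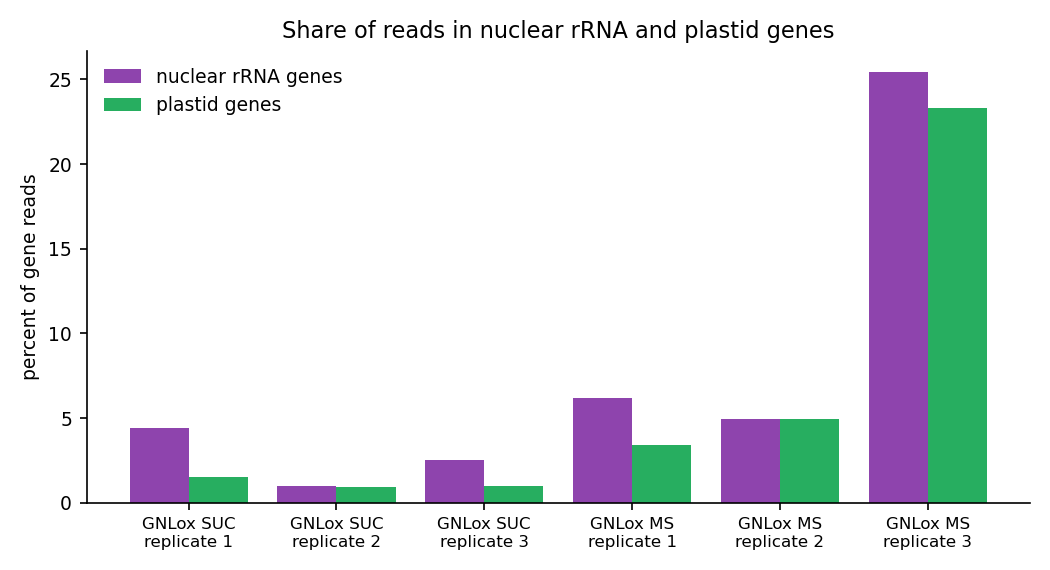
Share of gene reads (percent, vertical axis) in nuclear rRNA genes and in plastid genes for the 3 GNLox SUC and the 3 GNLox MS libraries; each bar is 1 library. GNLox MS replicate 3 reaches 25.4% rRNA and 23.3% plastid reads, and no other bar passes 6.19%.

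GNL was high on both media. GNL (AT4G26150, chr4:13253084-13255106, forward strand) had 4456, 5284 and 2839 CPM in GNLox SUC and 5135, 6289 and 6191 CPM in GNLox MS. The ranges overlapped and the change of -0.49 ± 0.38 (SE) was not called (adjusted p = 0.294). For scale, GNL averaged 1.90 ± 0.81 CPM in Col-0 SUC and 13.5 ± 8.0 CPM in Col-0 MS (SD, n = 3 each), a called fall of log2 -2.81 (adjusted p = 0.000143). The test of the difference between these responses did not pass, at 2.32 ± 0.57 (adjusted p = 0.0626). GNC (AT5G56860, chr5:22989216-22991530, reverse strand), which the transgene does not encode, fell to 5.17, 8.73 and 4.18 CPM in GNLox SUC, against 13.2, 14.9 and 21.3 CPM in GNLox MS. Every GNLox SUC library was below every GNLox MS library, and the log2 change of -1.44 ± 0.29 was called (adjusted p = 0.000732). Of the 6 B-GATA genes tested, 3 were called higher and 1, GNC, lower. GATA15 had 2.47, 3.82 and 4.44 CPM in GNLox SUC and 2.28, 1.87 and 1.55 CPM in GNLox MS, a rise of 0.89 ± 0.18 (adjusted p = 0.000867). GATA17L and GATA17 were called higher by 0.72 ± 0.21 and 0.56 ± 0.23, and without GNLox SUC replicate 2 only 1 of the 3 higher calls was made. The groups of GATA17 overlapped (adjusted p = 0.048). Its call was also lost without GNLox MS replicate 1, GNLox MS replicate 2 or GNLox SUC replicate 3.

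Sucrose changed 11997 of the 21903 genes tested in GNLox, or 54.8%. Of these, 6276 genes were higher (28.7%) and 5721 lower (26.1%), and the median over all genes was 0.026. At a log2 change of 1 or more, 2474 genes were higher and 1415 lower. In 12006 genes (54.8%) the ranges of the groups did not overlap, and 10763 genes met both criteria. When the GNLox libraries were left out 1 at a time, 8902 calls were made every time. With this background, a list of genes stands near it when about 28.7% of its members are called higher and 26.1% lower. A fit of only the 6 GNLox libraries called 9092 genes. In Col-0, 10903 genes (49.8%) were called, of all genes 26.0% higher and 23.8% lower. In gnc gnl, 7063 genes (32.2%) were called, 17.9% higher and 14.3% lower. GNLox and Col-0 share no library in these contrasts, and 8600 calls had the same direction in both, which is 71.7% of the GNLox calls and 78.9% of the Col-0 calls.

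Genes of carbon starvation fell together in GNLox with sucrose. Of 34 such genes tested, 30 were lower, 1 was higher and 3 were not called, with a median of -1.4. The dark-inducible genes DIN1, DIN3, DIN4, DIN9 and DIN10 were all among those that fell. DIN9 (AT1G67070, chr1:25041833-25044659, forward strand), a mannose-6-phosphate isomerase, had 6.63, 9.28 and 9.61 CPM in GNLox SUC and 36.6, 36.5 and 33.4 CPM in GNLox MS. The groups were far apart, with a log2 change of -2.06 ± 0.18 (adjusted p = 1.08e-06). TPS11 (AT2G18700, chr2:8108898-8112010, forward strand), a class II trehalose phosphate synthase-like protein, had 151, 182 and 159 CPM in GNLox SUC and 505, 547 and 549 CPM in GNLox MS, a change of -1.70 ± 0.15 (adjusted p = 1.18e-06). BGLU30, a beta-glucosidase also known as DIN2 and SRG2, fell to 225, 222 and 263 CPM in GNLox SUC, against 1879, 1493 and 1322 CPM in GNLox MS (-2.73 ± 0.27, adjusted p = 2.4e-06). BZIP63, a bZIP factor that SnRK1 phosphorylates, had 29.4, 32.5 and 32.5 CPM in GNLox SUC and 68.0, 69.2 and 63.0 CPM in GNLox MS (-1.08 ± 0.10, adjusted p = 1.24e-06). The one gene called higher, DIN11, rose by 0.78 ± 0.28 and was not called without GNLox MS replicate 1, without GNLox MS replicate 3 or without GNLox SUC replicate 3.

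The starvation genes with the highest reads fell too. DIN10, a raffinose synthase-like gene, had 948, 1114 and 1101 CPM in GNLox SUC and 3375, 3769 and 3613 CPM in GNLox MS (-1.77 ± 0.18, adjusted p = 3.28e-06). ASN1, the glutamine-dependent asparagine synthetase, had 449, 940 and 476 CPM in GNLox SUC and 1945, 2935 and 2653 CPM in GNLox MS (-2.01 ± 0.34, adjusted p = 0.000204). No library of either gene crossed into the other group. Among the 10 largest log2 falls was ASPGB1, an asparaginase, at 1.85, 2.80 and 2.44 CPM in GNLox SUC and 36.3, 30.1 and 26.2 CPM in GNLox MS (-3.70 ± 0.32, adjusted p = 1.18e-06). RNA of both ASN1, for asparagine synthesis, and ASPGB1, for its cleavage, was lower with sucrose. Col-0 had 29 of the same 34 genes lower, where 23.8% of all genes were lower, with a median of -0.83, and gnc gnl had 19 lower, with a median of -0.57. The difference between the responses of GNLox and Col-0, called for 1.12% of all genes, was called for 1 member, DIN9, at -1.23 (adjusted p = 0.0273), where 0.356% of all genes had a negative call. The call was lost without Col-0 MS replicate 2 or 3, without any single Col-0 SUC library, without GNLox MS replicate 2 or 3 and without GNLox SUC replicate 1. The difference from gnc gnl, called for 4.33% of all genes (1.56% negative), was called for 11 members, among them DIN3, DIN4, DIN9, DIN10 and TPS11. This count was 2 without gnc gnl MS replicate 1 or 2, gnc gnl SUC replicate 2, GNLox MS replicate 2 or GNLox SUC replicate 1, and 3, 5 and 7 without GNLox MS replicate 3, gnc gnl SUC replicate 3 and GNLox SUC replicate 3. It was 19 without GNLox MS replicate 1 and 20 without GNLox SUC replicate 2. The median difference stayed between -0.94 and -0.71 in these fits, and the difference of DIN9 was called in each.

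The 250 bases upstream of DIN9 and TPS11, the starvation genes with the smallest adjusted p, are shown because GNL belongs to the family that binds GATA motifs. They were read from the TAIR10.1 genome (RefSeq) in the direction of the gene, 5′ to 3′, at chr1:25041583-25041832 and chr2:8108648-8108897. Capitals mark GATAAG and the sugar repression letters TATCCA on either strand.
DIN9: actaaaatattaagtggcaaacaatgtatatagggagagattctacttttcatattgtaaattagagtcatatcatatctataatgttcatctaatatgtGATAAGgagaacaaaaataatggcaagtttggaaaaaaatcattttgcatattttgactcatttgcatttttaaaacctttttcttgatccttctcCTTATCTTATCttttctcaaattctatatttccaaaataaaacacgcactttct
TPS11: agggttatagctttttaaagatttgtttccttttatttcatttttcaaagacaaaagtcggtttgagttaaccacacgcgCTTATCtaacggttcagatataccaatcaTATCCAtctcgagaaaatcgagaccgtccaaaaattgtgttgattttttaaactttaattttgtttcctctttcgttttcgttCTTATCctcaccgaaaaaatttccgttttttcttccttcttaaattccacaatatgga
DIN9 held 3 matches and TPS11 held 3. Over the 34 starvation genes with a window, 29.4% held GATAAG and 26.5% TATCCA, against 12.5% and 14.1% of all 21736 windows. Over all called genes, GATAAG stood in 9.74% of windows of genes that were higher and in 15.3% of windows of genes that were lower in GNLox SUC. TATCCA stood in 12% of windows of higher genes and 16.8% of windows of lower genes. These shares are a description with no test, and a match is not a binding site.

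**Figure D2:**
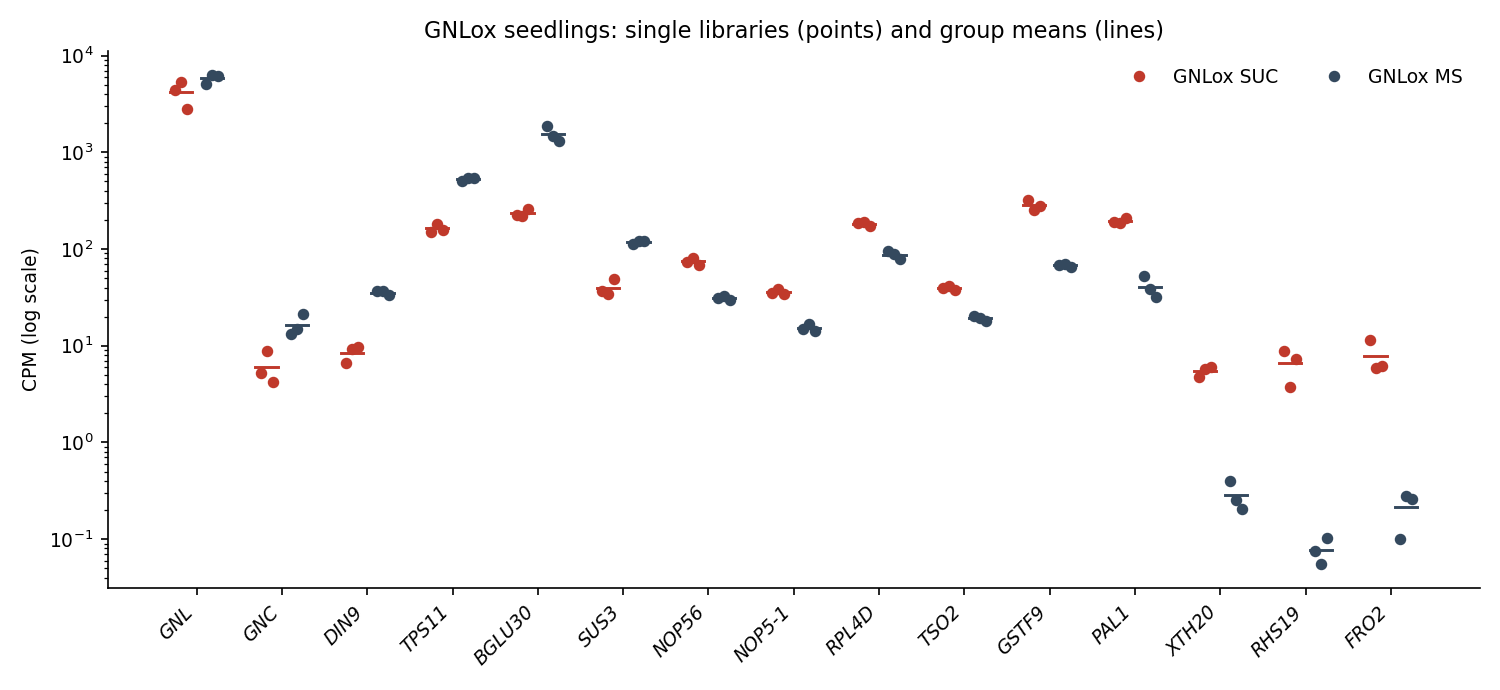
CPM (log axis) of 15 genes in the 3 GNLox SUC and 3 GNLox MS libraries; points are single libraries and lines group means. GNL overlaps between the groups; GNC, DIN9, TPS11, BGLU30 and SUS3 are lower and the other 9 genes are higher in GNLox SUC, with no overlap.

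Genes of the energy-sensing kinases and of autophagy, the process that recycles cell contents under starvation, were mostly lower. Of 13 SnRK1 and TOR genes, 10 were lower and none higher, with a median of -0.37. KINBETA1, a beta subunit of SnRK1, had 113, 150 and 120 CPM in GNLox SUC and 261, 345 and 337 CPM in GNLox MS (-1.30 ± 0.18, adjusted p = 3e-05). TOR itself had 118, 130 and 128 CPM in GNLox SUC and 181, 192 and 203 CPM in GNLox MS (-0.61 ± 0.09, adjusted p = 6.84e-05). Its partner RAPTOR1B was lower by a like amount, -0.60 ± 0.08. Of 16 autophagy genes, 12 were lower and none higher, with a median of -0.45. ATG8B, a ubiquitin-like protein of the autophagosome membrane, had 26.1, 33.6 and 34.4 CPM in GNLox SUC and 78.6, 113 and 149 CPM in GNLox MS (-1.85 ± 0.19, adjusted p = 3.84e-06), and ATG8E changed by -0.94 ± 0.10.

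Genes of abscisic acid and osmotic stress, of the clock, of light signalling and of oil breakdown were called lower more often than higher. In the abscisic acid list, 13 of 23 genes were lower and 4 higher, with a median of -0.72. ABI5, the bZIP factor that holds back growth after germination, had 7.36, 9.19 and 6.40 CPM in GNLox SUC and 14.9, 27.2 and 26.6 CPM in GNLox MS (-1.58 ± 0.21, adjusted p = 2.38e-05). Of 22 clock genes, 12 were lower and 1 higher (2 without GNLox MS replicate 1 or GNLox SUC replicate 1; median -0.69). TOC1, an evening component, had 89.3, 108 and 88.9 CPM in GNLox SUC and 179, 232 and 218 CPM in GNLox MS (-1.14 ± 0.14, adjusted p = 1.45e-05), and PRR7, another clock component, changed by -1.14 ± 0.17. Of 35 light signalling genes, 17 were lower and none higher (median -0.36). HFR1, a bHLH factor of far-red signalling, had 83.2, 77.3 and 79.6 CPM in GNLox SUC and 179, 168 and 176 CPM in GNLox MS (-1.12 ± 0.14, adjusted p = 1.23e-05). In the oil breakdown and glyoxylate list, 13 of 26 genes were lower and 3 higher (median -0.26). SDP1, the main lipase of seed oil, had 70.2, 68.3 and 78.4 CPM in GNLox SUC and 149, 150 and 149 CPM in GNLox MS (-1.05 ± 0.11, adjusted p = 3.49e-06), and the peroxisomal acyl-CoA oxidase ACX4 changed by -1.22 ± 0.15.

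**Figure D3:**
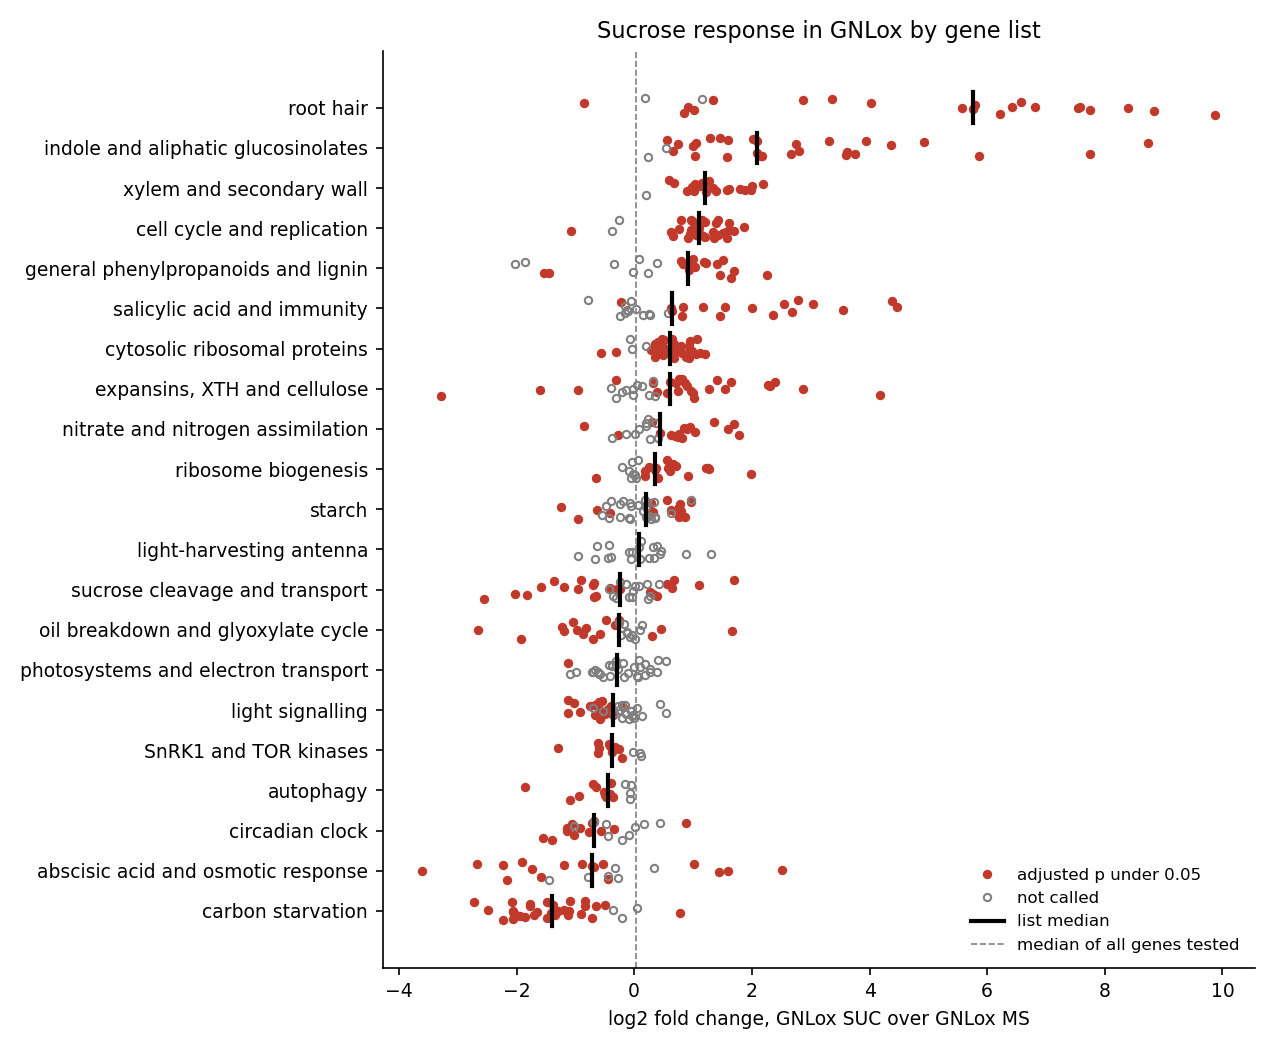
Log2 fold change of GNLox SUC over GNLox MS (horizontal axis) for each tested member of 21 gene lists; filled points are called, open points are not, black lines are list medians and the dashed line is the median of all genes tested (0.026). Carbon starvation genes lie lowest (median -1.4) and root hair genes highest (median 5.75).

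Genes for making ribosomes rose. Of 37 cytosolic ribosomal protein genes, 32 were higher and 2 lower, with a median of 0.61 and a range from -0.57 to 1.2; 1 was lower without GNLox MS replicate 2 or 3 or GNLox SUC replicate 1 or 3. RPL4D, a protein of the large subunit, had 185, 193 and 173 CPM in GNLox SUC and 96.4, 88.4 and 78.5 CPM in GNLox MS (1.06 ± 0.09, adjusted p = 9.91e-07). RPS6A, a small-subunit protein that is phosphorylated downstream of TOR, had 184, 182 and 157 CPM in GNLox SUC and 83.4, 78.4 and 66.3 CPM in GNLox MS (1.2 ± 0.12, adjusted p = 2.31e-06). Both groups stood clear of each other in each gene. Col-0 had 26 of the 37 higher (median 0.39), where 26.0% of all genes were higher, and gnc gnl 23 (median 0.33), where 17.9% were.

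The nucleolar genes that assemble ribosomes also rose in GNLox. Of 25 ribosome biogenesis genes, 16 were higher and 1 lower in GNLox SUC (median 0.35), whereas Col-0 had 4 higher and 10 lower (median -0.11) and gnc gnl 2 higher and 5 lower (median -0.16). Over all genes, 26.0% were higher and 23.8% lower in Col-0, and 17.9% higher and 14.3% lower in gnc gnl. NOP56 (AT1G56110, chr1:20984273-20986952, reverse strand), a core protein of the box C/D particles that methylate rRNA, had 73.9, 81.6 and 68.4 CPM in GNLox SUC and 31.4, 32.8 and 30.0 CPM in GNLox MS. That is a rise of 1.25 ± 0.11 (adjusted p = 1.13e-06), with no overlap. NOP5-1, its partner in the same particles, had 35.0, 38.9 and 33.9 CPM in GNLox SUC and 15.1, 16.8 and 14.1 CPM in GNLox MS (1.23 ± 0.11, adjusted p = 1.49e-06). FIB2, a fibrillarin and the methyltransferase of these particles, had 21.6, 31.2 and 20.1 CPM in GNLox SUC and 5.07, 7.18 and 6.27 CPM in GNLox MS (1.98 ± 0.22, adjusted p = 6.06e-06). EBP1, which promotes growth and ribosome assembly, had 78.5, 82.9 and 74.0 CPM in GNLox SUC and 44.9, 44.2 and 36.0 CPM in GNLox MS (0.91 ± 0.08, adjusted p = 1.24e-06). NAP57, the pseudouridine synthase of the box H/ACA particles, rose by 1.27 ± 0.14, and nucleolin NUC1 by 0.66 ± 0.09. The subunits NRPA1 and NRPA2 of RNA polymerase I rose by 0.36 ± 0.11 and 0.26 ± 0.08. REIL1, a late maturation factor, was the member that fell, with a change of -0.65 ± 0.15.

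Here the responses of the genotypes were compared directly. The difference between the responses of GNLox and Col-0 was called for 10 of these 25 genes, all positive (0.762% of all genes), namely NUC1, FIB1, NOP56, NOP5-1, NAP57, APUM24, SWA2, PES, BOP1 and NRPA2. Its median over the 25 was 0.56, and 22 were above 0. These calls were fragile: 0 were made without Col-0 MS replicate 2, without Col-0 MS replicate 3 or without GNLox MS replicate 3, and between 2 and 12 without any other single library of either genotype, while the median stayed between 0.50 and 0.61. Against gnc gnl, the difference was called for 14 of the 25 (2.77% of all genes were positive calls), and for 11 to 15 without any single library of GNLox or gnc gnl. Its median was 0.58. The direction in GNLox differed from that in Col-0 for single genes as well. SWA2, a nucleolar protein needed for ribosome maturation, had 31.6, 37.1 and 33.0 CPM in GNLox SUC and 27.1, 27.6 and 24.9 CPM in GNLox MS, a rise of 0.35 ± 0.09, against 29.1 ± 2.3 CPM in Col-0 SUC and 38.3 ± 4.0 CPM in Col-0 MS (SD, n = 3 each), a response of -0.39. The share of rRNA reads moved with the media in GNLox, at 1.00 to 4.40% in GNLox SUC and 4.96 to 25.4% in GNLox MS; its part in these results was not tested, except that with rRNA and organelle genes left out 9 of the 25 differences from Col-0 and 14 from gnc gnl were called.

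**Figure D4:**
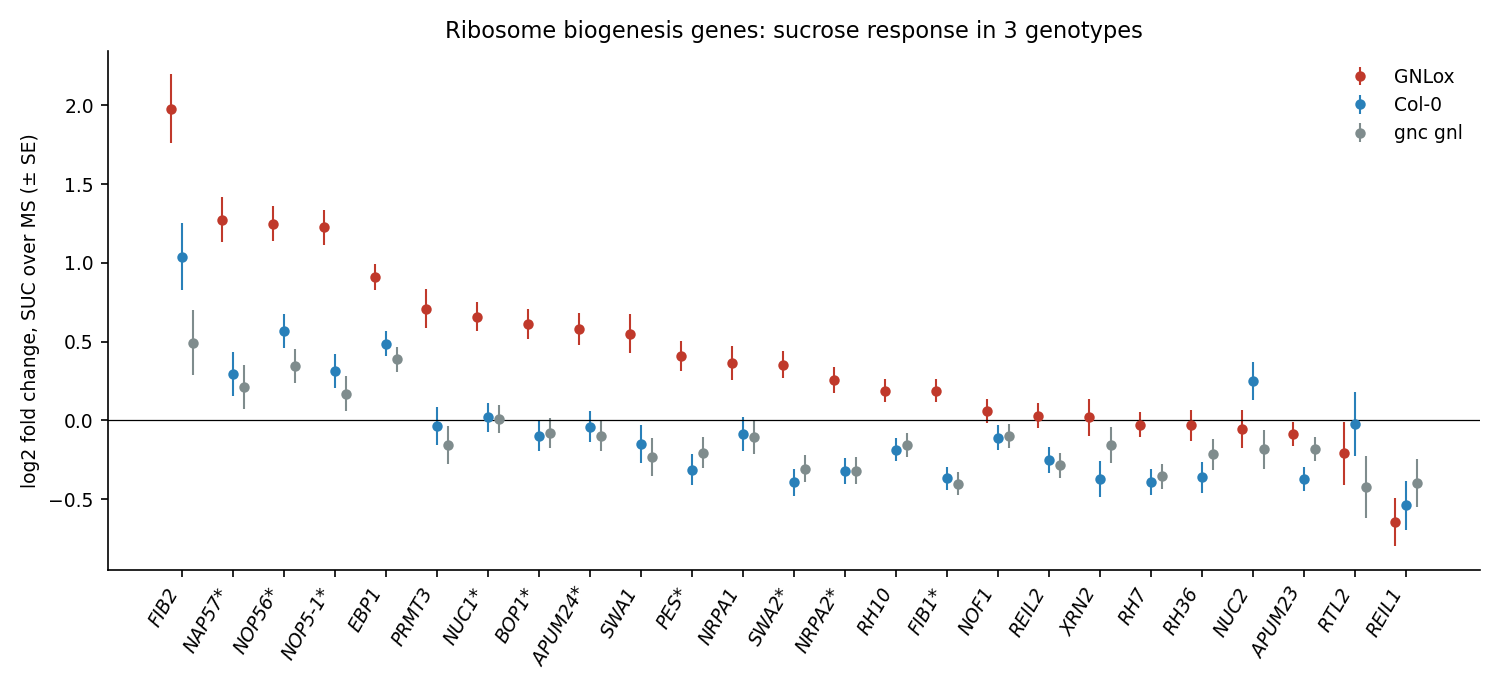
Log2 fold change of SUC over MS (vertical axis, bars ± SE) for 25 ribosome biogenesis genes in GNLox, Col-0 and gnc gnl; an asterisk marks a called difference between GNLox and Col-0. GNLox lies above Col-0 in 22 of the 25 genes, and 10 carry an asterisk.

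The windows upstream of NOP56, EBP1 and NOP5-1, the biogenesis genes with the smallest adjusted p, are shown because telo box and site II elements are known from ribosomal genes of plants. They lie at chr1:20986953-20987202 (reverse strand), chr3:19213777-19214026 (reverse strand) and chr5:9540611-9540860 (forward strand) of TAIR10.1 (RefSeq), printed in the direction of the gene. Capitals mark the telo box AAACCCTA and the site II letters TGGGCC on either strand.
NOP56: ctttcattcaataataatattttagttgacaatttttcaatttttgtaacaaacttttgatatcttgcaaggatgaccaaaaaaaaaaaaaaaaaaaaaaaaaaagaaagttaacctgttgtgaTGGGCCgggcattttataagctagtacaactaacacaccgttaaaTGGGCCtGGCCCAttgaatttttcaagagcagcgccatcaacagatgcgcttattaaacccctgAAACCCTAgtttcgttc
EBP1: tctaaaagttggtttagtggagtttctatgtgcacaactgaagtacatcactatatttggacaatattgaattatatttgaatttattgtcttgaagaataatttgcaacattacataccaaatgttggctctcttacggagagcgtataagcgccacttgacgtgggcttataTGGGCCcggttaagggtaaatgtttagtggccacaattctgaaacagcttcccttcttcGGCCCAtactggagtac
NOP5-1: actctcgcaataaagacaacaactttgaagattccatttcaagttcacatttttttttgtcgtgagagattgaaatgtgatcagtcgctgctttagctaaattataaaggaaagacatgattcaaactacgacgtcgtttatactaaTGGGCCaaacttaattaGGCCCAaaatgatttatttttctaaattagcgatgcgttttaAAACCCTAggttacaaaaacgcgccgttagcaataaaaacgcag
NOP56 held 4 matches, EBP1 2 and NOP5-1 3, and no match stood in the window of FIB2. Of the 25 biogenesis windows, 24.0% held the telo box and 40.0% the site II letters, against 3.46% and 15.7% of all windows. Of the 37 ribosomal protein windows, 16.2% and 51.4% held them. Over all called genes the site II share hardly separated the directions, at 16.2% of windows of higher genes and 15.4% of windows of lower genes. The G-box CACGTG stood in 6.20% of higher and 8.71% of lower genes, and the abscisic acid element ACGTGGC, which can overlap a G-box, in 3.2% and 4.93%.

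**Figure D5:**
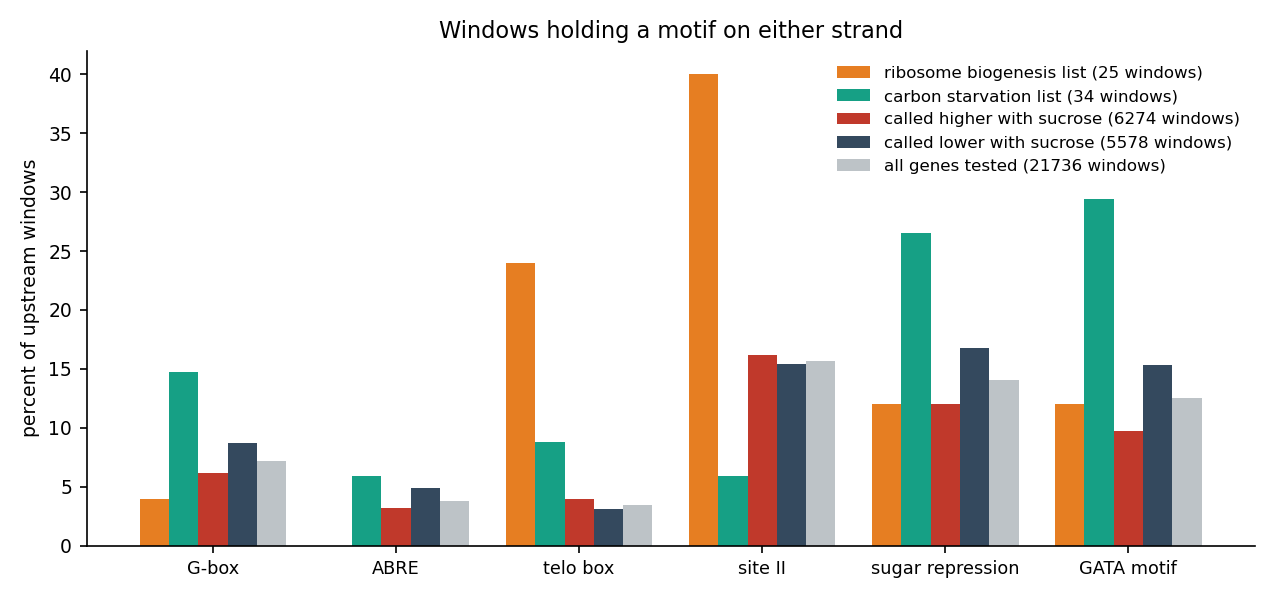
Percent of 250-base upstream windows (vertical axis) that hold each of 6 motifs on either strand, in the ribosome biogenesis list, the carbon starvation list, genes called higher, genes called lower and all genes tested in GNLox. Site II letters reach 40.0% in the biogenesis list and GATA motifs 29.4% in the starvation list, against 15.7% and 12.5% of all windows.

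Cell division genes rose broadly. Of 35 genes of the cell cycle and DNA replication, 32 were higher and 1 lower (2 without GNLox MS replicate 1 or GNLox SUC replicate 2), with a median of 1.11. TSO2, a subunit of ribonucleotide reductase, had 39.8, 41.0 and 37.7 CPM in GNLox SUC and 20.5, 19.5 and 18 CPM in GNLox MS (1.03 ± 0.07, adjusted p = 3.09e-07). MCM2, part of the replicative helicase, had 10.9, 11.9 and 9.39 CPM in GNLox SUC and 4.64, 3.66 and 3.83 CPM in GNLox MS (1.4 ± 0.14, adjusted p = 3.49e-06). The mitotic cyclin CYCB1;3 rose by 1.60 ± 0.18. The libraries of each of these genes kept to their own group. The summed level of 5 markers of dividing cells was 49.9 to 53.5 CPM in GNLox SUC and 17.9 to 26.7 CPM in GNLox MS, and all 5 were called higher.

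Wall loosening and wood-type wall genes rose as well. Of 37 expansin, xyloglucan hydrolase (XTH) and cellulose synthase genes, 22 were higher and 4 lower (median 0.60). Without GNLox MS replicate 3, 15 were higher and 3 lower (median 0.48). In all, 8 of the calls were lost in at least 1 fit that left out a GNLox library. EXPB3, an expansin, had 14.3, 14.5 and 14.4 CPM in GNLox SUC and 3.3, 2.60 and 2.18 CPM in GNLox MS (2.4 ± 0.20, adjusted p = 1.04e-06). CESA2, a cellulose synthase of the primary wall, had 184, 117 and 141 CPM in GNLox SUC and 48.6, 49.5 and 42.1 CPM in GNLox MS (1.65 ± 0.16, adjusted p = 2.15e-06). XTH20 rose by 4.19 ± 0.46. Of 23 xylem and secondary wall genes, 22 were higher and none lower (median 1.21). XCP1, a protease of dying vessel cells, had 56.7, 41.9 and 65.5 CPM in GNLox SUC and 18.2, 15.3 and 13.7 CPM in GNLox MS (1.79 ± 0.21, adjusted p = 9.99e-06), and the lignin regulator MYB63 rose by 1.99 ± 0.23. The 7 xylem markers summed to 182 to 255 CPM in GNLox SUC and 79.0 to 106 CPM in GNLox MS, with all 7 called higher.

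Of the lists, that of root hair genes had the highest median. Of 23 root hair genes tested, 20 were higher and 1 lower, with a median of 5.75, or 5.24 with the 4 genes that had no read in GNLox MS set at their lower bound (3 reads over the group). EXPA7, an expansin of growing root hairs, had 3.3, 2.01 and 2.92 CPM in GNLox SUC and 0.025, 0.028 and 0 CPM in GNLox MS. It had 351 reads over the GNLox SUC libraries and 2 over the GNLox MS libraries, a ratio of 129 (95% interval 35.6 to 1073, counting error only). RHS19, a root hair peroxidase, had 8.76, 3.77 and 7.30 CPM in GNLox SUC and 0.074, 0.056 and 0.10 CPM in GNLox MS (6.42 ± 0.44, adjusted p = 3.09e-07). LRX1, a wall protein that shapes root hairs, had 9.51, 5.58 and 10.7 CPM in GNLox SUC and at most 0.074 CPM in a GNLox MS library, a rise of 7.57 ± 0.56 that was called larger than in gnc gnl by 4.17 (adjusted p = 0.0137) and not called larger than in Col-0 (adjusted p = 0.118). Of the regulators of root hair growth, RHD6 rose by 1.02 ± 0.25, RSL2 rose by 5.57 ± 0.58, and RSL4 stood at 1.16 ± 0.53 and was not called. Root hair markers summed to 29.0 to 50.4 CPM in GNLox SUC and 3.63 to 5.84 CPM in GNLox MS, with 6 of 7 called higher and 1 of the 7 (EXPA18) without a read in GNLox MS. By contrast, 7 markers of the root endodermis summed to 315 to 455 CPM in GNLox SUC and 389 to 659 CPM in GNLox MS, with 0 called higher and 1 lower.

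Iron uptake genes of the root epidermis rose too. IRT1 (AT4G19690, chr4:10707344-10709015, forward strand), the main iron transporter, had 37.4, 16.9 and 23.7 CPM in GNLox SUC and 0.050, 0 and 0 CPM in GNLox MS. Its 3279 reads in GNLox SUC and 2 in GNLox MS gave a ratio of 1209 (95% interval 334 to 9987, counting error only). FRO2, the ferric chelate reductase, had 11.5, 5.82 and 6.24 CPM in GNLox SUC and 0.099, 0.28 and 0.26 CPM in GNLox MS (5.25 ± 0.60, adjusted p = 7.88e-06). AGP30, an arabinogalactan protein of roots, had 5.62, 8.69 and 5.91 CPM in GNLox SUC and no read in GNLox MS, at least 216-fold higher by the 3-read bound. In the list of root endodermis, suberin and iron genes, 14 of 25 were higher and 1 lower (2 without GNLox MS replicate 3), and in that of iron and phosphate status 14 of 33 were higher and 6 lower. The phosphate starvation RNA AT4 rose to 52.6, 38.2 and 43.0 CPM in GNLox SUC, against 3.97, 1.90 and 4.25 CPM in GNLox MS (3.75 ± 0.31, adjusted p = 9.62e-07). PYK10, the beta-glucosidase that fills ER bodies of roots and hypocotyls, had the largest rise in CPM, with 5749, 2884 and 5499 CPM in GNLox SUC and 929, 574 and 451 CPM in GNLox MS (2.85 ± 0.32, adjusted p = 6.17e-06). AT3G16420, known as PBP1, which binds PYK10, had 2104, 1034 and 2028 CPM in GNLox SUC and 625, 373 and 313 CPM in GNLox MS (1.98 ± 0.29). The peroxidases PER21 and PER42 rose by 1.91 ± 0.39 and 1.51 ± 0.16. In PYK10, AT3G16420 and PER21, GNLox SUC replicate 2 was the lowest of its group and still above GNLox MS.

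Glucosinolates are sulfur compounds of defence. Of 31 glucosinolate genes, 29 were higher and none lower, with a median of 2.09. GSTF9, a glutathione transferase of the pathway, had 324, 255 and 282 CPM in GNLox SUC and 68.7, 70.0 and 64.6 CPM in GNLox MS (2.08 ± 0.14, adjusted p = 2.39e-07). CYP79B2, which turns tryptophan into the precursor of indole glucosinolates, had 36.6, 32.1 and 38.8 CPM in GNLox SUC and 2.14, 3.72 and 3.06 CPM in GNLox MS (3.60 ± 0.28, adjusted p = 6.07e-07). SUR1, the C-S lyase, rose by 1.45 ± 0.10. In the general phenylpropanoid list, 14 of 23 genes were higher and 2 lower (median 0.91). PAL1, the entry enzyme, had 190, 188 and 212 CPM in GNLox SUC and 52.4, 38.6 and 31.7 CPM in GNLox MS (2.26 ± 0.19, adjusted p = 7.94e-07), and 4CL1 rose by 1.5 ± 0.12. The libraries of the groups did not overlap for any of these 5 genes. The flavonoid branch was less certain, with 9 of 19 genes higher and 3 lower, but 5, 3 and 4 higher without GNLox MS replicate 2, GNLox MS replicate 3 and GNLox SUC replicate 2. In the salicylic acid and immunity list, 16 of 29 genes were higher and 1 lower (median 0.65), and the 1 lower call was not made without GNLox MS replicate 1 or 2 or GNLox SUC replicate 1 or 2. EDS5, the exporter of the salicylic acid precursor from plastids, had 9.75, 5.27 and 7.65 CPM in GNLox SUC and 0.89, 0.45 and 0.52 CPM in GNLox MS (3.56 ± 0.39, adjusted p = 6.15e-06). In the heat, hypoxia and stress list, 3 of 25 genes were higher and 5 lower (32.0% called, under the 54.8% of all genes). There were 6 higher without GNLox MS replicate 1 or GNLox SUC replicate 2 and 3 lower without GNLox MS replicate 3 or GNLox SUC replicate 1. BIP2, an ER chaperone of that list, had 143, 126 and 135 CPM in GNLox SUC and 48.3, 46.2 and 37.3 CPM in GNLox MS (1.61 ± 0.13, adjusted p = 5.88e-07).

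Genes that cleave, move or store sugar changed in both directions. In the sucrose list, 8 of 37 were higher and 15 lower (median -0.24). SUS3, a sucrose synthase, had 36.5, 34.1 and 48.5 CPM in GNLox SUC and 113, 121 and 123 CPM in GNLox MS (-1.58 ± 0.16, adjusted p = 2.5e-06). SWEET2, a sugar transporter of the vacuole, had 18.7, 18.1 and 33.1 CPM in GNLox SUC and 182, 121 and 109 CPM in GNLox MS (-2.56 ± 0.30, adjusted p = 9.3e-06). The sensor hexokinase HXK1 rose by 0.55 ± 0.07. Of 39 starch genes, 12 were higher and 4 lower (41.0% called, under the 54.8% of all genes). The lower count was 8 without GNLox MS replicate 1 and 11 without GNLox SUC replicate 2. GPT1, which imports glucose 6-phosphate into plastids, had 35.1, 28.6 and 42.0 CPM in GNLox SUC and 18.5, 18 and 17.4 CPM in GNLox MS (0.97 ± 0.12), while the beta-amylases BAM1 and BAM9 changed by -0.64 ± 0.08 and -0.95 ± 0.10. Of 18 trehalose phosphate genes, 6 were higher and 7 lower. TPPB, a trehalose phosphate phosphatase, had 5.30, 3.97 and 3.89 CPM in GNLox SUC and 0.60, 0.64 and 0.47 CPM in GNLox MS (2.91 ± 0.25, adjusted p = 1.07e-06). The response of TPPB was 1.29 in Col-0 and 0.78 in gnc gnl, and the difference from gnc gnl, 2.13 (adjusted p = 0.00597), was called. The difference of TPPB from Col-0 was called too, but in only 5 of 12 fits that left out 1 library. TPS5, a class II protein, rose by 1.5 ± 0.13, while TPS11 of the same class fell. In the nitrogen list, 15 of 27 were higher and 2 lower (1 lower without any single GNLox library other than GNLox MS replicate 1). The nitrite reductase NIR1 had 153, 140 and 147 CPM in GNLox SUC and 86.0, 67.6 and 60.8 CPM in GNLox MS (1.04 ± 0.15, adjusted p = 3.91e-05).

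Hormone genes moved in both directions. The auxin list had 11 of 43 genes higher and 10 lower, near the background, with 17 higher when GNLox MS replicate 1 was left out. The auxin importer LAX3 rose by 1.06 ± 0.13, and the synthesis gene YUC8 had 11.2, 14.8 and 14.4 CPM in GNLox SUC and 23.1, 23.1 and 21.2 CPM in GNLox MS (-0.74 ± 0.14, adjusted p = 0.000321). The gibberellin list had 3 of 27 higher and 11 lower. Each of 3 libraries, GNLox MS replicate 3, GNLox SUC replicate 1 and GNLox SUC replicate 3, brought the lower count to 7 when left out, and the higher count was 5 without GNLox MS replicate 1 or GNLox SUC replicate 2. GA3OX1, which makes active gibberellin, had 21.4, 17.9 and 19.2 CPM in GNLox SUC and 7.33, 5.12 and 6.37 CPM in GNLox MS (1.64 ± 0.14, adjusted p = 1.18e-06), and the receptor gene GID1A changed by -0.50 ± 0.07. In the cytokinin list, 14 of 29 were higher and 5 lower. ARR3, a type-A response regulator, had 1.77, 1.35 and 1.76 CPM in GNLox SUC and 0.15, 0.11 and 0.21 CPM in GNLox MS (3.42 ± 0.36), a rise called larger than in gnc gnl by 2.76 (adjusted p = 0.00732). The ethylene list had 11 of 25 in each direction, with the transcription factor EIN3 at 215, 230 and 233 CPM in GNLox SUC and 373, 417 and 388 CPM in GNLox MS (-0.80 ± 0.11, adjusted p = 3.41e-05). In the brassinosteroid list, 6 of 26 were higher and 4 lower (38.5% called, under the 54.8% of all genes). The higher count was 2, 2 and 1 without GNLox MS replicate 2, GNLox MS replicate 3 and GNLox SUC replicate 1.

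The photosynthesis genes depended on single libraries, most of all on GNLox SUC replicate 2. Of 20 light-harvesting antenna genes 0 were called in GNLox by edgeR, 0 by DESeq2 and 0 at an unadjusted p under 0.05, and of 32 photosystem and electron transport genes 0 were higher and 1 lower. LHCB1.3, a major antenna protein, had 2135, 7969 and 2186 CPM in GNLox SUC and 1196, 2795 and 2698 CPM in GNLox MS, so that replicate 2 lay far above the other GNLox SUC libraries. The summed level of 5 markers of etiolated cotyledons was 3100, 11340 and 3122 CPM in GNLox SUC and 2272, 4741 and 4545 CPM in GNLox MS. Without GNLox SUC replicate 2, 16 of the 32 photosystem genes were called lower (median -0.88), as were 12 of 19 Calvin cycle genes (2 with that library), 11 of 29 chlorophyll and heme genes (3 with it), 8 of 24 chloroplast regulators (4 with it) and 4 of 20 antenna genes. That fit called 12366 genes in either direction, and with every library in, 26.1% of all genes were lower. Against that 26.1%, the antenna count lay below and the count of chloroplast regulators near it. Without GNLox MS replicate 1, 3 photosystem, 7 chlorophyll and 1 antenna gene were lower, and without GNLox SUC replicate 1 or 3 the chlorophyll list had 1 lower. PSAN, a photosystem I subunit, had 39.3, 106 and 41.0 CPM in GNLox SUC and 107, 151 and 149 CPM in GNLox MS (-1.13 ± 0.42, adjusted p = 0.0346), and was called in 2 of 6 leave-one-out fits; the call was lost without GNLox MS replicate 2 or 3 and without GNLox SUC replicate 1 or 3. The heme oxygenase HO1, which acts in the synthesis of the phytochrome chromophore, was called in each of the 6 leave-one-out fits. It had 120, 107 and 114 CPM in GNLox SUC and 209, 205 and 185 CPM in GNLox MS (-0.81 ± 0.12, adjusted p = 4.97e-05). GLK1, a regulator of chloroplast genes, had 8.94, 16.4 and 8.60 CPM in GNLox SUC and 15.0, 28.1 and 28.9 CPM in GNLox MS, called at -1.07 ± 0.31. Its groups overlapped, as GNLox SUC replicate 2 lay above GNLox MS replicate 1. The plastid division genes FTSZ2-2, FTSZ1-1 and PDV1 rose by 0.97 ± 0.15, 0.89 ± 0.20 and 0.89 ± 0.15, while PDV2 changed by -0.47 ± 0.10. The rise of FTSZ1-1 ranged from 0.67 to 1.03 in the leave-one-out fits.

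Some of the largest falls were in seed-type genes. AT2G42560 and AT3G53040, both annotated as late embryogenesis abundant proteins, and ECP63, an embryonic protein, were among the 10 largest. AT2G42560 had 0.052, 0.088 and 0.044 CPM in GNLox SUC and 0.17, 2.54 and 5.65 CPM in GNLox MS. Its call was lost in the fits of only the GNLox libraries, with and without the replicate block. AT3G53040 had 0.62, 0.90 and 0.66 CPM in GNLox SUC and 1.39, 13.6 and 15.7 CPM in GNLox MS, where replicate 1 lay far below the other libraries of its group. ECP63 had 0.16, 0.42 and 0.24 CPM in GNLox SUC and 0.65, 6.68 and 6.32 CPM in GNLox MS, with the same library low (-4.01 ± 0.87, adjusted p = 0.00133). ABI3, a regulator of seed maturation, had 0.86, 0.77 and 2.18 CPM in GNLox SUC and 2.73, 8.47 and 6.89 CPM in GNLox MS (-2.23 ± 0.55, adjusted p = 0.00315). Of 16 seed storage and oil body genes tested, 3 were lower (18.8%, under the 26.1% of all genes) and none higher. Without GNLox MS replicate 3, 2 were lower. The 9 markers of ungerminated seed or embryo summed to 16.1 to 46.6 CPM in GNLox SUC and 24.0 to 54.5 CPM in GNLox MS, with 2 called lower. Of the stomatal lineage list 4 of 17 were lower and 1 higher (29.4% called, under the 54.8% of all genes). The lower count was 10 without GNLox SUC replicate 2, 7 without GNLox MS replicate 1 and 2 without GNLox MS replicate 2 or GNLox SUC replicate 1. It was 1 without GNLox MS replicate 3 or GNLox SUC replicate 3. The higher count was 0 without GNLox MS replicate 1, GNLox SUC replicate 1 or GNLox SUC replicate 2. The 6 stomatal markers summed to 10.9 to 19.98 CPM in GNLox SUC and 14.2 to 25.4 CPM in GNLox MS.

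Some of the largest ratios rest on reads that match more than 1 place. AT1G48750, a lipid-transfer protein gene, had 15.9, 13.1 and 17.5 CPM in GNLox SUC and no read in GNLox MS, at least 491-fold higher. AT5G48485, another lipid-transfer type gene, and the calmodulin-like gene CML30 had no read in GNLox SUC and 549 and 214 reads in GNLox MS, at least 248-fold and 96.7-fold lower. None of these 3 genes had a unique read in a GNLox library, so the values cannot be assigned to them alone. The same holds in part for AT3G13061 (6.3% unique) and AT4G22485 (17.2%), whereas EXPA18 rose at least 106-fold, and AT1G19900, a glyoxal oxidase-related gene, at least 92.4-fold on unique reads. The nuclear rRNA gene AT3G41768 had the largest fall in CPM, at 36213, 7768 and 20398 CPM in GNLox SUC and 59702, 48763 and 436472 CPM in GNLox MS, and was not called without GNLox MS replicate 3.

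Over all genes, the test of the difference from Col-0 called 245 genes, of which 167 were positive (0.762%) and 78 negative (0.356%), and in 131 the sign of the response was opposite in GNLox and Col-0, with both responses called in 38. The difference from gnc gnl called 948 genes, 606 positive (2.77%) and 342 negative (1.56%), and in 840 of them the change was larger in size in GNLox. The count of 245 depended on single libraries. It was 2 without Col-0 MS replicate 2 or 3, 60, 30 and 121 without Col-0 SUC replicates 1, 2 and 3, 383, 50 and 26 without GNLox MS replicates 1, 2 and 3, and 44 and 140 without GNLox SUC replicates 1 and 2. The count of 948 was 323 and 403 without gnc gnl MS replicates 1 and 2, 462 and 379 without gnc gnl SUC replicates 2 and 3, 2132, 434 and 341 without GNLox MS replicates 1, 2 and 3, and 406 and 1903 without GNLox SUC replicates 1 and 2. SBT4.12, a subtilisin-like protease, had 138, 156 and 151 CPM in GNLox SUC and 22.5, 20.2 and 17.8 CPM in GNLox MS, a rise of 2.88 ± 0.12 (adjusted p = 2.03e-09), and rose by 2.17 in Col-0 and 1.51 in gnc gnl. LON1, a mitochondrial protease, had 31.0, 27.9 and 28.7 CPM in GNLox SUC and 16.6, 14.2 and 15.9 CPM in GNLox MS (0.91 ± 0.08, adjusted p = 1.24e-06), against 16.6 ± 1.0 CPM in Col-0 SUC and 14.9 ± 0.5 CPM in Col-0 MS (SD, n = 3 each). PHB6, a prohibitin, had 19.6, 20.1 and 21.3 CPM in GNLox SUC and 13.4, 13.9 and 11.7 CPM in GNLox MS (0.64 ± 0.07, adjusted p = 7.45e-06), against 21.3 ± 1.3 CPM in Col-0 SUC and 21.2 ± 1.1 CPM in Col-0 MS. TIM13, a protein of the mitochondrial import system, rose by 1.08 ± 0.08, against 0.54 in Col-0 and 0.29 in gnc gnl. ATRPAC42, a subunit of RNA polymerases I and III, rose to 8.92, 9.19 and 9.85 CPM in GNLox SUC, against 6.33, 5.76 and 6.06 CPM in GNLox MS (0.62 ± 0.09, adjusted p = 4.19e-05).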

How the data were processed

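RNA from whole dark-grown seedlings was extracted with the NucleoSpin RNA kit, per the labels' protocols, and reads were mapped to TAIR 10, per the submitters' processing notes. The aligner, the counter, the library kit and its strand have not been stated in the sources used here, so reads of overlapping and antisense genes cannot be told apart. Each deposited file held the authors' total and unique read counts per gene, whole numbers that were not normalized, beside TPM values made by the authors, which entered no test. Total gene reads were tested with edgeR 4.0.16 (R 4.3.3) by its quasi-likelihood test with robust dispersion, TMM normalization and edgeR's default filter on low counts. Group means of all 18 libraries entered 1 fit (12 residual degrees of freedom), and p-values were adjusted by Benjamini-Hochberg over 21903 genes. The SE is the absolute log2 change divided by the square root of F. Gene reads per library ranged from 27362791 to 41942516. Intervals of ratios cover counting error only, and a bound sets a group without reads at 3 reads.

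Nothing in the labels says that replicates came from different cultures. The p-values therefore reflect only how these samples varied, which may be technical. No replicate pair was a duplicate. The members and the gene lists (38 lists, 1033 members found, 21 symbols not found) were chosen with earlier results of these data known. The rule named GNL and GNC, the 10 largest log2 rises and falls and the 6 largest CPM rises and falls among nuclear genes that were called, without overlap and at 2 CPM or more, 8 genes of the smallest adjusted p for each difference (ties taken in gene ID order), and up to 4 called genes a list. Other genes were named after their values were seen. Markers of other tissues were summed as CPM. Windows of 250 bases upstream of 21736 genes came from the TAIR10.1 genome (RefSeq), in which 32532 of 32548 nuclear genes had the start and end of the files. The alternatives were DESeq2 1.42.0, RLE normalization, no filter, only the groups compared, unique reads, nuclear genes without rRNA, a replicate block and each library left out. The scripts were tested on simulated data.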

Additional observations from a re-analysis of the deposited data

Results flagged for a closer look

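The test of the difference between the sucrose responses of GNLox and Col-0 gave its smallest adjusted p, 0.0186 in edgeR's quasi-likelihood test, to 31 genes. The 8 named here are the first of these in gene ID order, not the strongest. AT1G16870 differed by 0.54, with a response of 0.51 in GNLox and -0.03 in Col-0. SEC31A differed by -2.75, at 2.36 in Col-0 and -0.39 in GNLox, where the response was not called (adjusted p = 0.200). It averaged 5.34 CPM in GNLox SUC and 7.03 CPM in GNLox MS, against 2.18 CPM in Col-0 SUC and 0.422 CPM in Col-0 MS. MORF5, an RNA editing factor, differed by 0.66, SBT3.5, a subtilase, by -0.98, and ATRPAC42, a polymerase subunit, by 0.77. SWA2 differed by 0.75, AT1G74560 by 0.88 and AT2G05120 by 0.84. Without Col-0 MS replicate 2 or Col-0 MS replicate 3, 2 genes in all passed this test.

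The difference from gnc gnl singled out 8 further genes, with adjusted p from 0.00448 to 0.00522. CML30 differed by -9.83, a value that rests on reads with more than 1 match. PHB6 differed by 0.79, EMB2785 by 0.82, AT2G35790 by 1.01 and AT3G02700 by -0.64. LON1 differed by 0.91, at 0.91 in GNLox and -0.001 in gnc gnl. SBT4.12 differed by 1.37, at 2.88 in GNLox and 1.51 in gnc gnl, and TIM13 by 0.79. Both differences use the same GNLox libraries.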

How the results depend on the processing

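The sucrose response in GNLox was called for 10227 to 12366 genes when 1 library was left out, against 11997 with all. Differences from Col-0 ranged from 2 to 383 and differences from gnc gnl from 323 to 2132 in such fits, against 245 and 948. DESeq2 called 873 and 1878 differences, and a fit of only the groups compared called 369 differences from gnc gnl. Of the comparisons of named genes across alternatives, 2519 kept direction and call, 49 lost the call, 1 gained it and 0 changed direction. Counts over lists moved by over 1.5 times in 106 of the comparisons and stayed within it in 958. Deviations from the group means correlated at 0.262, 0.346 and -0.219 between same-numbered GNLox libraries, and at -0.459 to 0.361 between differently numbered ones. With so few libraries a group, these values cannot decide whether the numbers pair the samples. With the replicate block, 12127 genes were called for the response (9189 in a fit of only the 6 GNLox libraries, an alternative chosen after seeing the data), 295 for the difference from Col-0 and 1382 for that from gnc gnl. Where another reason for a moved count is not named, the cause was not tested.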

Other observations

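Water channel genes were not described above. Of 19 aquaporin genes tested, 8 were higher and 2 lower in GNLox SUC (median 0.39), and 5 were higher without GNLox MS replicate 3. The lower count was 1 without any single GNLox library other than GNLox MS replicate 1. TIP4;1, a channel of the vacuole membrane, rose by 2.2 ± 0.31 and PIP2;4, of the plasma membrane, by 1.56 ± 0.36. TIP3;1, a channel of seeds, changed by -3.34 ± 1.34 and was called in 1 of 6 leave-one-out fits.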
